A study of Bos taurus with 48 samples.

Results

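CRYM (ENSBTAG00000009842), PRLR (ENSBTAG00000025035) and DSP (ENSBTAG00000015106) are 3 of the 24616 Ensembl genes counted in subcutaneous adipose tissue of Norwegian Red dairy heifers. They were chosen by their difference between the high- and low-protein diets at 12 months of age, CRYM and PRLR within the low-energy diets (HPLE-LPLE) and DSP within the high-energy diets (HPHE-LPHE). The identifier of PRLR comes from a list of genes selected on LPHE-LPLE at the same age. In the HP-LP contrast of 12 months averaged over the energy levels, the likelihood ratio test called 2 of 13339 genes at an FDR under 0.1. These were CRYM and PRLR, so the HPHE and LPHE values of that age are not independent of the choice of these 2 genes. The quasi-likelihood F test called 0 genes in that averaged contrast. In HPLE-LPLE of 12 months the likelihood ratio test called 0 of 13339 genes. The values of 12 months are therefore given as a description without tests, and tests are given for samples and comparisons outside the contrasts that chose the genes.

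RNA-seq was performed on biopsies taken beside the tail base of 24 heifers. Each heifer gave a sample at 12 months and a second sample during month 7 of gestation, at 20 to 24 months of age. From 3 months of age until pregnancy was established the heifers received 1 of 4 diets, with 6 heifers per diet: LPHE, HPHE, LPLE or HPLE, where L and H stand for low and high, P for protein and E for energy. The energy level came from the roughage, which was unrestricted grass silage at the high level and a limited amount of silage diluted with straw at the low level. The protein level came from the roughage and from 1 of 2 concentrates. During pregnancy all heifers shared a single low-energy feed offered freely, so in month 7 the diet names refer to the rearing diet and not to the feed of the day. Each diet held 3 heifers of the high milk-yield pedigree (HMY) and 3 of the low clinical mastitis pedigree (LCM). Age, pregnancy and the change of feed cannot be told apart in a comparison of the sampling times.

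CRYM encodes μ-crystallin, a cytosolic protein that binds thyroid hormone in the presence of NADPH and that also acts as a ketimine reductase in lysine breakdown. PRLR encodes the prolactin receptor, a cytokine-type receptor that signals mainly through JAK2 and STAT5 and also binds placental lactogen. Prolactin acts on mammary gland as well as on adipose tissue, where lipid metabolism is among its targets. DSP encodes desmoplakin, the plaque protein that anchors intermediate filaments to desmosomes. Desmosomes are the spot-like junctions of epithelia and heart muscle, and they are not a typical feature of mature adipocytes. A tissue sample holds many cell types, and fewer cells of a type cannot be told apart from less RNA per cell.

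Between 14815595 and 59809633 reads were counted on genes per sample at 12 months (median 32166717), and between 22430093 and 61027456 in month 7 (median 43293433). All 3 genes were of low abundance, and levels are given as CPM (the count of a gene relative to the total count of its sample), scaled with TMM. Over the 48 samples the median was 1.83 CPM for CRYM, 1.49 CPM for PRLR and 2.85 CPM for DSP. The highest samples reached 64.1 CPM, 22.3 CPM and 74.6 CPM, respectively, and the lowest value rested on 4 reads. LEP and CIDEC, the 2 of 10 listed adipocyte markers that could be matched to an identifier, were high throughout. They had at least 78.3 CPM and 809 CPM in every sample, so the labelled tissue carried these 2 markers. In 3 libraries the share of reads that did not align uniquely stood apart: 40.0% in heifer 7 (HPLE, month 7), 33.1% in heifer 23 (HPHE, month 7) and 28.8% in heifer 6 (HPHE, 12 months). The rise in HPHE heifers and the correlations over heifers are also given without these animals.

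At 12 months, CRYM was low in every heifer fed a high-protein diet and varied widely in those fed a low-protein diet. In HPHE heifers CRYM ranged from 0.805 to 1.02 CPM (median 0.938), and in HPLE heifers from 0.680 to 1.88 CPM (median 1.08). In LPHE heifers it ranged from 0.548 to 8.33 CPM (median 1.88), and in LPLE heifers from 0.442 to 50.2 CPM (median 5.23). None of the 12 HP heifers reached 2 CPM, against 7 of the 12 LP heifers, but the lowest LP heifers lay below the HP heifers, so the diets overlapped. The log2 fold change was -3.36 ± 0.80 (SE) for HPLE-LPLE, the contrast that chose the gene, and -1.93 ± 0.75 for HPHE-LPHE. Heifer 14 alone gave the highest LPLE value, and without this heifer the HPLE-LPLE fold change was -2.06.

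PRLR was the gene of the 3 with the clearest separation by protein level within the low-energy diets at 12 months. In LPLE heifers PRLR ranged from 1.63 to 7.90 CPM (median 4.16) and in HPLE heifers from 0.216 to 1.63 CPM (median 1.14), so every LPLE heifer lay above every HPLE heifer, with a very small gap. In LPHE heifers it ranged from 0.442 to 2.56 CPM (median 1.43) and in HPHE heifers from 0.213 to 1.20 CPM (median 0.443), and these diets overlapped. The log2 fold change was -2.16 ± 0.50 (SE) for HPLE-LPLE and -1.48 ± 0.51 for HPHE-LPHE. With each of the 12 heifers of the contrast left out in turn, the HPLE-LPLE fold change stayed between -2.38 and -1.91.

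DSP at 12 months was set apart by a pair of LPHE heifers. Heifer 24 had 68.8 CPM and heifer 3 had 31.8 CPM, whereas the other LPHE heifers lay between 0.198 and 6.02 CPM, and the median of the diet was 4.76 CPM. HPHE heifers ranged from 0.162 to 3.47 CPM (median 1.16), LPLE heifers from 2.13 to 9.36 CPM (median 6.15) and HPLE heifers from 2.13 to 5.56 CPM (median 3.84). The log2 fold change was -3.72 ± 0.85 (SE) for HPHE-LPHE, the contrast that chose the gene, and -0.59 ± 0.76 for HPLE-LPLE. Without heifer 24 the HPHE-LPHE fold change was -2.66. Ordered by their medians at 12 months, the diets ran LPLE, LPHE, HPLE and HPHE from high to low for each of the 3 genes.

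**Figure D1:**
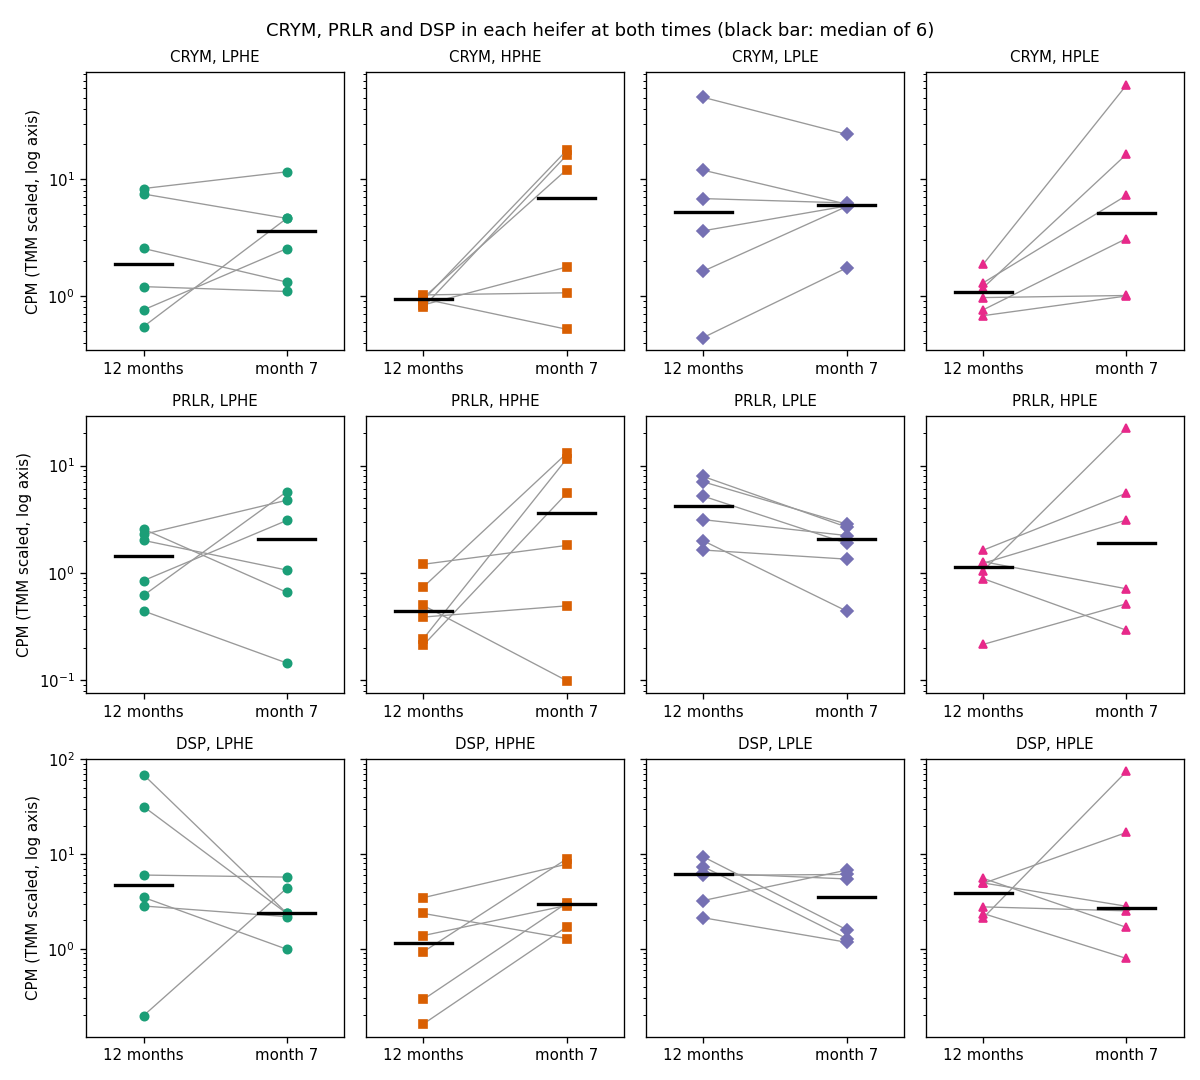
CPM (TMM scaled, log axis) of CRYM, PRLR and DSP for each of the 24 heifers at 12 months and in month 7 of gestation, 1 panel per gene and diet, with a line joining the samples of a heifer and a black bar at the median of 6 heifers. CRYM was between 0.805 and 1.02 CPM in all HPHE heifers at 12 months and between 0.520 and 17.7 CPM in the same heifers in month 7.

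Month 7 of gestation asks whether the difference between the protein diets was still present in the same heifers after all had received the same pregnancy feed. It was not detected for any of the 3 genes. The fitted values were positive where those of 12 months were negative, but those of HPLE-LPLE rested on single heifers. CRYM ranged from 1.10 to 11.6 CPM in LPHE heifers (median 3.59) and from 0.520 to 17.7 CPM in HPHE heifers (median 6.95). In LPLE heifers it ranged from 1.74 to 24.2 CPM (median 6.01) and in HPLE heifers from 1.002 to 64.1 CPM (median 5.19). The ranges of all 4 diets overlapped, and 7 of the 12 HP heifers now reached 2 CPM, against 9 of the 12 LP heifers.

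PRLR in month 7 ranged from 0.145 to 5.71 CPM in LPHE heifers (median 2.07) and from 0.0990 to 12.98 CPM in HPHE heifers (median 3.65). It ranged from 0.441 to 2.85 CPM in LPLE heifers (median 2.06) and from 0.292 to 22.3 CPM in HPLE heifers (median 1.91). The highest LPLE heifer lay below the highest heifer of each other diet, but the ranges overlapped. DSP ranged from 0.992 to 5.72 CPM in LPHE heifers (median 2.37), from 1.29 to 8.91 CPM in HPHE heifers (median 2.96), from 1.18 to 6.78 CPM in LPLE heifers (median 3.53) and from 0.793 to 74.6 CPM in HPLE heifers (median 2.67). The value of 74.6 CPM came from heifer 9, and the next HPLE heifer, heifer 13, had 16.9 CPM. Ordered by median, the diets ran HPHE, LPLE, HPLE and LPHE for CRYM, HPHE, LPHE, LPLE and HPLE for PRLR, and LPLE, HPHE, HPLE and LPHE for DSP, and the ranges of neighbours in these orders overlapped.

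In the model of the 24 samples of month 7, the HPHE-LPHE log2 fold change was 1.19 ± 0.91 (SE) for CRYM, 1.38 ± 1.06 for PRLR and 0.47 ± 0.80 for DSP, each with an FDR of 1.0. For HPLE-LPLE it was 0.83 ± 0.86 for CRYM, 1.37 ± 0.95 for PRLR and 2.10 ± 0.85 for DSP, each with an FDR of 1.0. Differentially expressed genes were called at an FDR under 0.1, and in these contrasts 0 of 13403 genes (0.0% in HPHE-LPHE and 0.0% in HPLE-LPLE) passed the likelihood ratio test of edgeR. At an unadjusted p under 0.05 there were 228 genes in HPHE-LPHE and 383 in HPLE-LPLE. The quasi-likelihood F test called 0 genes in both, DESeq2 called 1 and 4, and the older dispersion functions of edgeR called 1 and 10. Few or no genes of the whole transcriptome were thus called between the protein levels in month 7.

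The HPLE-LPLE values of month 7 rested on single heifers. Without heifer 13, the HPLE-LPLE log2 fold change was -0.68 for CRYM and -0.15 for PRLR, and without heifer 9 that of DSP was 0.20. The difference of the mean log2(CPM + 0.5), in which a single high heifer weighs less, was 0.38 for CRYM, 0.55 for PRLR and 0.31 for DSP in HPHE-LPHE, and -0.09, 0.33 and 0.73 in HPLE-LPLE. Exact two-sided permutation tests of these 6 differences (6 heifers against 6, smallest possible p = 0.00216) gave p between 0.507 and 0.935, and between 0.849 and 0.935 after adjustment over the 6 tests. The SE of the fold changes of the model was 0.80 to 1.06 with 6 heifers per diet, so the power to detect differences was low. Even the DSP value of 2.10 ± 0.85 in HPLE-LPLE was not called. A difference as large as the -2.16 of PRLR in HPLE-LPLE at 12 months could therefore also be missed in month 7.

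**Figure D2:**
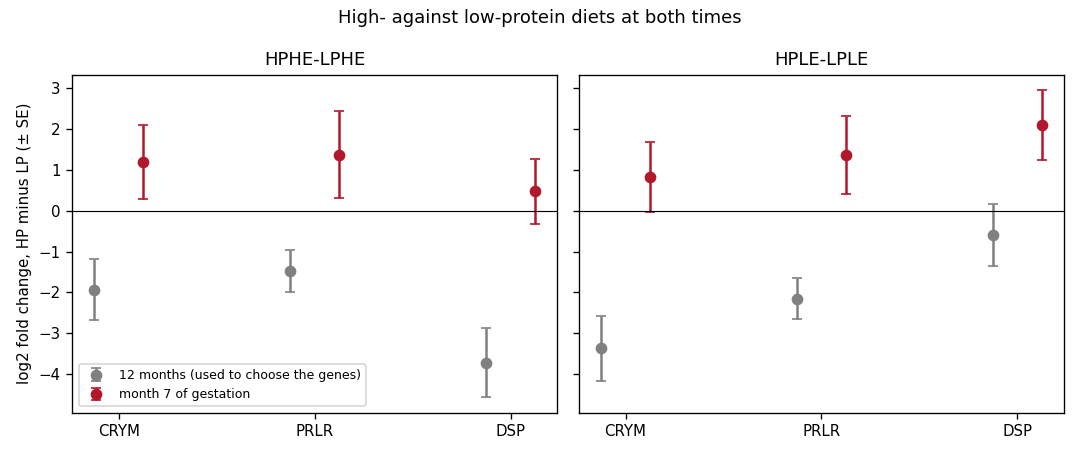
Log2 fold change of HP against LP heifers (± SE of the model, 6 heifers per diet) for each gene, within the high-energy diets at left and the low-energy diets at right, at 12 months in grey and in month 7 in red. All 6 values of 12 months, which include those that chose the genes, were below 0 and all 6 of month 7 were above 0. None of the latter had an FDR under 0.1. Without heifer 13 the HPLE-LPLE values of month 7 were -0.68 for CRYM and -0.15 for PRLR. For each of the 3 genes the median of HPLE heifers in month 7 lay below that of LPLE heifers.

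Averaged over the energy levels, the HP-LP log2 fold change in month 7 was 1.01 ± 0.62 (SE) for CRYM, 1.37 ± 0.68 for PRLR and 1.29 ± 0.60 for DSP, each with an FDR of 1.0. These values also rested on single heifers: without heifer 13 they were 0.074 for CRYM and 0.26 for PRLR, and without heifer 9 that of DSP was 0.45. This contrast called 3 of 13403 genes (0.0224%). The energy contrasts of the rearing diets, in which age differed as well, called more genes. Of all genes, 1.5% were called in LPHE-LPLE, 0.933% in HPHE-HPLE and 9.75% in HE-LE averaged over the protein levels. None of the 3 members was called, which at these shares would be likely for any 3 genes. In the averaged HE-LE contrast the log2 fold change was -0.84 ± 0.62 for CRYM (FDR 0.486), 0.23 ± 0.65 for PRLR (FDR 0.890) and -1.13 ± 0.57 for DSP (FDR 0.253). Without heifer 13 the value of CRYM was -0.21 and that of PRLR 1.05, and without heifer 9 that of DSP was -0.14. DSP was lower in HPHE than in HPLE by a log2 fold change of -1.94 ± 0.82 (FDR 0.417), but without heifer 9 this value was 0.11.

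Neither pedigree was called higher for any of the 3 genes. At 12 months the HMY-LCM log2 fold change was -0.42 ± 0.53 (SE) for CRYM (FDR 0.785), 0.50 ± 0.35 for PRLR (FDR 0.581) and -0.68 ± 0.55 for DSP (FDR 0.642), and 1 of 13339 genes (0.0075%) was called. In month 7 it was -0.62 ± 0.65 for CRYM (FDR 0.860), -0.45 ± 0.76 for PRLR (FDR 0.934) and 0.11 ± 0.60 for DSP (FDR 0.988), with 23 of 13403 genes called (0.172%). The sign of the CRYM value at 12 months turned without heifer 14, and in month 7 the signs of CRYM and PRLR turned without heifer 13.

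From 12 months to month 7, CRYM and PRLR rose in HPHE heifers. The HPHE values of 12 months are part of the averaged HP-LP contrast in which both genes were called at that age. A rise from these low values is therefore not independent of the choice of the genes, and its tests cannot separate time from that choice. CRYM was higher in month 7 in 5 of 6 HPHE heifers (log2 fold change 3.26 ± 0.89 SE, FDR 0.00227), and PRLR was higher in 5 of 6 (3.29 ± 0.85, FDR 0.00120). The rise was not shared evenly. Heifers 2, 15 and 19 went from between 0.805 and 0.969 CPM of CRYM to between 12.1 and 17.7 CPM, and from between 0.213 and 0.741 CPM of PRLR to between 5.50 and 12.98 CPM. In heifers 6, 11 and 23 neither gene passed 2 CPM in month 7, and heifer 23, with 33.1% of reads not aligned uniquely, was the heifer in which both genes were lower. In HPHE heifers 36.2% of the 13718 genes tested were called between the sampling times, 2565 of them higher and 2399 lower in month 7 (4230 and 1581 with scaling to library size only), so a call as such was common there. Without heifer 6 the rise was 3.41 for CRYM and 3.45 for PRLR, and without heifer 23 it was 3.44 and 3.498. With the heifer as replicate block the log2 fold changes were smaller, 2.15 ± 0.75 for CRYM (FDR 0.0146) and 2.31 ± 0.93 for PRLR (FDR 0.0368).

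The change of CRYM in LPHE heifers did not pass the test, at 0.16 ± 0.82 (SE, FDR 0.908) and 3 of 6 heifers higher in month 7, while 33.3% of all genes were called. The difference between the changes in HPHE and LPHE heifers was 3.098 ± 1.19 for CRYM (FDR 1.0), so the response of CRYM was not shown to differ between these diets. DSP changed by -0.64 ± 0.80 in LPLE heifers (FDR 0.889, 2 of 6 heifers higher, 0.649% of genes called) and by 2.23 ± 0.84 in HPLE heifers (FDR 0.178, 2 of 6 heifers higher, 3.01% of genes called). The HPLE value of DSP came down to 0.06 without heifer 9.

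The remaining changes with time start from the 12-month values of the contrast that chose the gene, and they are given without a test. CRYM was higher in month 7 in 6 of 6 HPLE heifers and in 3 of 6 LPLE heifers. PRLR was lower in month 7 in 6 of 6 LPLE heifers, and in HPLE heifers it was higher in 4 of 6. DSP was lower in month 7 in 5 of 6 LPHE heifers, among them heifers 24 and 3, which fell from 68.8 and 31.8 CPM to 2.38 and 2.36 CPM, and it was higher in 5 of 6 HPHE heifers. Over all diets CRYM was higher in month 7 in 17 of 24 heifers, PRLR in 12 and DSP in 10.

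Without regard to diet, a heifer with a high level at 12 months did not reliably have a high level in month 7. For CRYM the levels were correlated once the means of the diets were taken out, as given below. The correlation of log2(CPM + 0.5) between the sampling times over 24 heifers was r = 0.38 for CRYM (permutation p = 0.0673, adjusted over the 3 genes 0.202; Spearman rho = 0.38, permutation p = 0.0688, adjusted 0.206). For PRLR it was r = 0.0081 (permutation p = 0.970, adjusted 0.970; rho = 0.0061, p = 0.979, adjusted 0.979), and for DSP r = -0.09 (permutation p = 0.676, adjusted 0.970; rho = -0.10, p = 0.634, adjusted 0.951). Among the 6 highest heifers of each sampling time, 1 was shared for CRYM (heifer 14) and 0 for PRLR and for DSP. Without the 2 heifers farthest from the 12-month median, r was 0.25 for CRYM, -0.05 for PRLR and -0.01 for DSP. With values centred on the mean of the diet, the CRYM correlation was r = 0.44 (permutation within diets, p = 0.00156, adjusted 0.00468). Within diets of 6 heifers, r was 0.92 in LPLE, 0.89 in HPLE, 0.54 in LPHE and -0.34 in HPHE, in which CRYM spanned very little at 12 months.

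In contrast, the 3 genes were high in the same heifers within month 7. CRYM and PRLR were correlated with r = 0.86 over 24 heifers (permutation p = 1e-05, the smallest that the resamples can give, adjusted over the 3 pairs 3e-05; rho = 0.84, p = 1e-05, adjusted 1.5e-05). For CRYM and DSP r was 0.69 (permutation p = 0.00017, adjusted 0.00017; rho = 0.72, p = 0.00012, adjusted 0.00012), and for PRLR and DSP r was 0.69 (permutation p = 0.00016, adjusted 0.00017; rho = 0.79, p = 1e-05, adjusted 1.5e-05). Heifers 2, 9, 13 and 15 were among the 6 highest for all 3 genes, and heifer 19 for CRYM and PRLR. These heifers came from HPHE (2, 15 and 19) and HPLE (9 and 13). Without the 2 heifers farthest from the median of the first gene, r was 0.80, 0.62 and 0.61 for the 3 pairs, and with values centred on the diet it was 0.90, 0.70 and 0.70. Without heifers 6, 7 and 23, r was 0.83, 0.68 and 0.67. Within each of the 4 diets the 3 pairs also had positive correlations, from r = 0.50 to r = 0.99 over 6 heifers.

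At 12 months CRYM and PRLR had r = 0.75 over the 24 heifers, CRYM and DSP r = 0.26 and PRLR and DSP r = 0.29, values that share the choice of the genes and carry no test. The heifers with most DSP at 12 months, 24 and 3, had 0.617 and 2.01 CPM of PRLR.

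**Figure D3:**
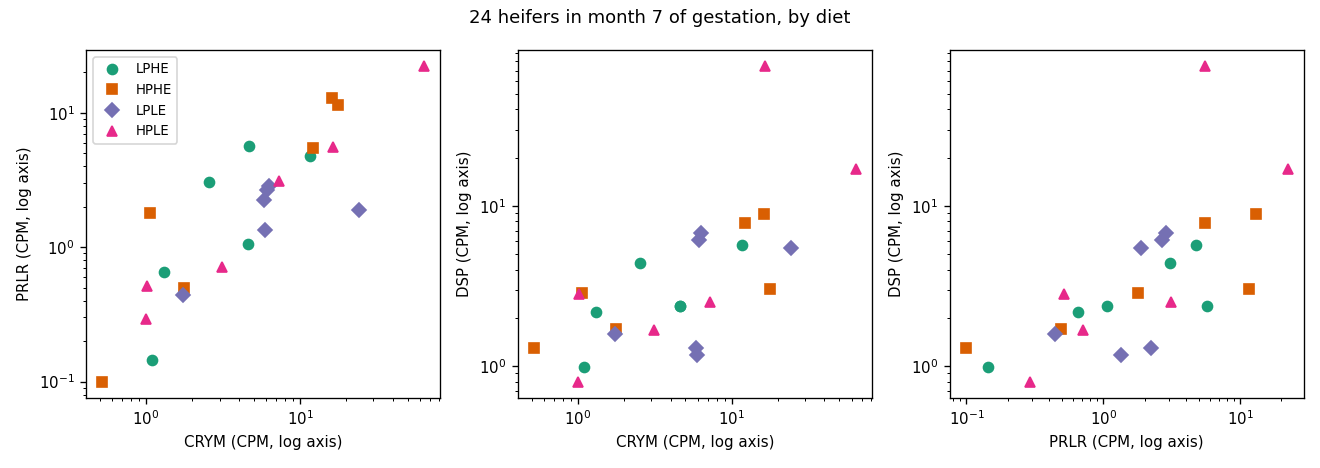
CPM of each pair of the 3 genes in month 7 of gestation (both axes logarithmic), with 1 point per heifer and the symbol giving the rearing diet. The points rise together in all 3 panels, with r of 0.86 for CRYM and PRLR and 0.69 for each pair with DSP on log2(CPM + 0.5).

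Other measures moved with the 3 genes in month 7, and their part in these correlations and in the rise in HPHE heifers was not tested. Of the 5 markers of lymphatic endothelium 3 could be matched (LYVE1, FLT4 and CCL21), and their summed level had r of 0.45 with CRYM, 0.62 with PRLR and 0.30 with DSP. The 3 markers differed, with r of 0.67, 0.80 and 0.60 in the same order for FLT4, 0.51, 0.75 and 0.51 for CCL21, and 0.08, 0.09 and -0.12 for LYVE1, the most abundant of them by median. The summed level of the 3 lymphatic markers ranged from 19.5 to 48.6 CPM in HPHE heifers at 12 months and from 66.6 to 244 CPM in month 7. All 3 were called higher in month 7 in HPHE heifers, where 36.2% of all genes were called in either direction, with log2 fold changes of 2.005 ± 0.42 (SE, FDR 4.73e-05) for LYVE1, 1.05 ± 0.36 (FDR 0.0171) for FLT4 and 2.77 ± 0.72 (FDR 0.00126) for CCL21. The total count of a sample had r of 0.26 with CRYM, 0.42 with PRLR and 0.45 with DSP in month 7, and the share of reads not aligned uniquely had r of -0.33, -0.26 and -0.07.

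Markers of other cell types were matched in part. The 3 matched of 20 epithelial markers (KRT19, ITGB4 and LAMB3) summed to between 71.3 and 219 CPM in month 7, with r of 0.65 with CRYM, 0.69 with PRLR and 0.46 with DSP, and ITGB4, at a median of 91.2 CPM the most abundant of them, is also made by cells other than keratinocytes. In HPHE heifers from 12 months to month 7, ITGB4 was called higher, KRT19 and the adipocyte marker CIDEC were called lower, and 0 of the 7 muscle genes were called in either direction. The 7 matched of 15 skeletal muscle markers summed to between 1.34 and 342 CPM in month 7, with r of 0.22, 0.37 and 0.03 in the same order. MYL1 was at 0 in 34 of the 48 samples, MYH2 in 30 and MYLPF in 13. The summed adipocyte markers LEP and CIDEC ranged from 982 to 2797 CPM in month 7 and had r of -0.37, -0.54 and -0.24 with CRYM, PRLR and DSP. No marker of sweat and sebaceous gland, mammary epithelium, immune cells, blood vessel endothelium, mesothelium or liver could be matched to an identifier, so these were not analysed here.

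Few genes of the pathways around the members had an identifier, and their symbols come from lists that were selected on LPHE-LPLE of these samples at 12 months, so their counts are no independent evidence of a direction. For the prolactin receptor 3 of 29 listed genes could be followed. CISH, a feedback inhibitor of STAT5 signalling that STAT5 itself induces, ranged from 7.22 to 13.4 CPM (median 9.27) in HPHE heifers at 12 months and from 10.6 to 65.5 CPM (median 19.3) in month 7, and this rise was 1.46 ± 0.37 on the log2 scale (SE, FDR 0.000857). The 65.5 CPM came from heifer 23, in which PRLR was lower in month 7, and the other HPHE heifers had 10.6 to 28.4 CPM. Without heifer 23 the rise of CISH was 0.95 ± 0.36 (FDR 0.0446). IRS1, an insulin receptor substrate, also rose in HPHE heifers by a log2 fold change of 0.50 ± 0.17 (FDR 0.0171), a call that was lost without heifer 6 (0.35, FDR 0.137), and PTPN11, the phosphatase SHP2, fell by 0.64 ± 0.24 on the log2 scale (FDR 0.0320). Over the 24 heifers the correlation of CISH with PRLR was r = 0.72 at 12 months and r = 0.32 in month 7, and that of PTPN11 with PRLR was r = -0.52 and r = -0.74.

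Around CRYM, 2 of 27 genes of thyroid hormone handling and 3 of 9 genes of lysine breakdown could be followed. All 5 were called lower in month 7 in HPHE heifers, in which CRYM was higher and 36.2% of all genes were called in either direction. THRSP, a lipogenic gene induced by thyroid hormone, fell from 12 months to month 7 (log2 fold change -2.73 ± 0.47 SE, FDR 3.43e-07), and SLC7A8, an amino acid transporter that also carries thyroid hormone, with -2.17 ± 0.48 (FDR 0.000110). The lysine catabolic enzymes ALDH7A1 (-0.94 ± 0.14, FDR 8.23e-09), AADAT (-1.30 ± 0.23, FDR 4.55e-07) and PIPOX (-1.32 ± 0.47, FDR 0.0217) fell as well. All 5 genes also fell in LPHE heifers, in which CRYM did not pass the test and 33.3% of all genes were called. In the HE-LE contrast of month 7, in which age differed as well, 9.75% of all genes were called. THRSP (-1.22, FDR 0.0224), ALDH7A1 (-0.34, FDR 0.0420) and AADAT (-0.40, FDR 0.0547) were called lower there, and the other 2 were not called. Over the 24 heifers in month 7, the correlations of these 5 genes with CRYM lay between r = -0.17 and r = 0.13.

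For desmoplakin, DSC1 was the 1 gene of 16 desmosome genes that could be followed. DSC1 encodes desmocollin 1, a desmosomal cadherin of the upper epidermis. It was at or below 0.533 CPM in 44 of the 48 samples, 13 of them at 0, and above 1 CPM in the other 4. These were heifers 24 (17.7 CPM) and 3 (4.76 CPM) of LPHE and heifer 8 of LPLE (20.6 CPM) at 12 months, and heifer 9 of HPLE in month 7 (25.5 CPM). Heifers 24 and 3 at 12 months and heifer 9 in month 7 were also the 3 samples with most DSP of all 48, and heifer 8, at 9.36 CPM, had the highest DSP of the LPLE diet. The correlation of DSP and DSC1 was r = 0.67 at 12 months and r = 0.61 in month 7 over 24 heifers each. These values rested on few samples, since DSC1 was above 1 CPM only in heifers 24, 3 and 8 at 12 months and only in heifer 9 in month 7. In the other sample of these 4 heifers DSC1 was at or below 0.159 CPM. Of the epithelial markers, KRT19, a keratin of simple epithelia, had r with DSP of 0.03 at 12 months and 0.02 in month 7, ITGB4 had 0.17 and 0.45, and LAMB3 had -0.19 and 0.53. No keratin of the epidermis could be matched.

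**Figure D4:**
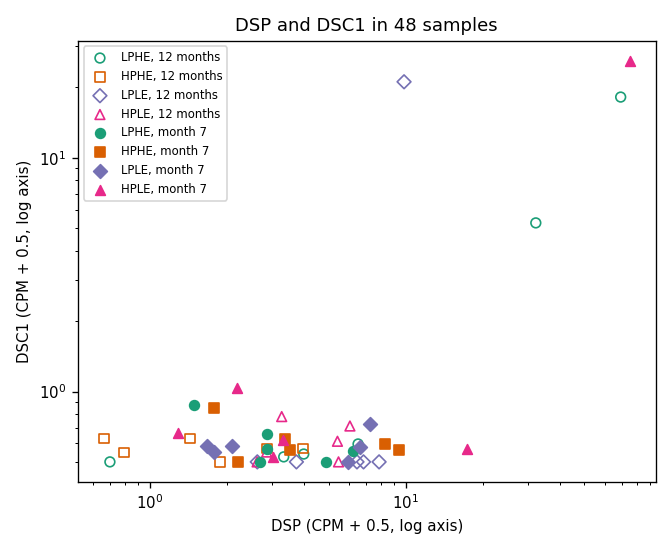
DSC1 against DSP in the 48 samples, as CPM + 0.5 on logarithmic axes, with open symbols for 12 months, filled symbols for month 7 and the symbol shape and colour giving the diet. The 3 samples with most DSP (31.8, 68.8 and 74.6 CPM) are among the 4 samples with DSC1 above 1 CPM.

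Among the 13718 genes tested, those whose log2(CPM + 0.5) was most like that of a member over the 48 samples were found for each member, as a description in which samples of a heifer and of a diet are not independent. PRLR was at rank 4 for CRYM (r = 0.81), and A4GALT, a glycosyltransferase of glycolipid synthesis, at rank 5 (r = 0.80), whereas CRYM ranked 12 for PRLR. The genes most like PRLR were ENSBTAG00000038421 (r = 0.89), SUSD4 (r = 0.88), a membrane protein with complement control domains, NPY1R (r = 0.86), a receptor for neuropeptide Y, and WBSCR17 (r = 0.85), a GalNAc transferase of the Golgi. These 4 genes had r between 0.69 and 0.82 with PRLR at 12 months and between 0.92 and 0.93 in month 7. NPY1R also had r = 0.79 with CRYM, while DSP ranked 1588 for CRYM (r = 0.43) and 947 for PRLR (r = 0.48). In the ranking for DSP, PRLR was at rank 58 and CRYM at rank 120. The 5 genes most like DSP have no symbol in the tables used here, the first being ENSBTAG00000046350 (r = 0.77). Among genes with a symbol, a view added after the values were seen, DSC1 was the one most like DSP, at rank 16 (r = 0.64). That value rested on the few samples in which DSC1 was high.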

How the data were processed

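Counts per Ensembl gene were deposited for each of the 48 samples. To make them, the authors trimmed reads with Cutadapt (v 1.3), aligned read pairs to UMD3.1 with Tophat (v 2.0.12) and counted with HTSeq-count, without normalization. The library kit does not mark strand, and counts per gene do not separate the forms of PRLR. Summary rows of the counting tool were left out (genes held 39.0 to 61.2% of what was counted). Symbols come from the tables of the study, since the reference table at hand is of another assembly. A gene entered a fit when 3 or more of its samples had 2 CPM or more. TMM scaling, glmFit and the likelihood ratio test of edgeR (v 4.0.16, R v 4.3.3) were used with diet and pedigree, over 24 samples per sampling time or all 48 for time, with Benjamini-Hochberg adjustment over all genes and calls at an FDR under 0.1. The SE follows from the fold change and its likelihood ratio (Wald equivalent). Correlations used log2(CPM + 0.5) and 100000 resamples (Python v 3.11.15, scipy v 1.17.1). The fits were tested on simulated data. Members, lists and tests were chosen with earlier results of these data known. Genes named are the members, some of the 5 most like each, and listed genes that were called or most abundant. Same-numbered samples came from the same heifer (correlation of deviations from group means -0.06 to 0.58, median 0.30, over 0.1 in 20 of 24), so the heifer was a replicate block in an alternative fit. Alternatives were the quasi-likelihood F test, DESeq2 (v 1.42.0), RLE or no scaling, other filters, no pedigree, other samples in the fit, an FDR of 0.05, pseudocounts of 0.1 and 2, and each heifer left out. A further marker list is not reported here.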

Additional observations from a re-analysis of the deposited data

How the results depend on the processing

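Under the alternatives, 740 values kept their direction and their side of the threshold, 26 changed sign and 1 passed the threshold that it had missed. No change of sign touched a call, and the cause was not tested. With only the diets compared in the fit, the month 7 log2 fold change of PRLR was -0.16 (LPHE-LPLE) or -0.21 (HPHE-HPLE). With all 48 samples in the fit the latter was -0.054. The PRLR correlation between sampling times was -0.070 with a pseudocount of 2, -0.047 without the 2 farthest heifers and -0.21 without heifers 6, 7 and 23, an alternative chosen after seeing the data. The CRYM correlation between sampling times passed the threshold when centred on the diet (0.44). With each heifer left out, the log2 fold changes of month 7 ranged from -0.68 to 1.44 (CRYM, HPLE-LPLE), -1.09 to 0.55 (CRYM, HPHE-HPLE), -0.15 to 1.63 (PRLR, HPLE-LPLE), -0.12 to 0.60 (PRLR, LPHE-LPLE), -0.24 to 1.46 (PRLR, HPHE-HPLE), -0.040 to 1.05 (PRLR, HE-LE) and -2.36 to 0.11 (DSP, HPHE-HPLE). For HMY-LCM they ranged from -0.67 to 0.16 (CRYM, 12 months), -0.83 to 0.23 (CRYM, month 7), -0.74 to 0.60 (PRLR, month 7) and -0.72 to 0.36 (DSP, month 7), and for CRYM with time in LPHE from -0.074 to 0.49.

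The rise in HPHE heifers was called under every alternative run, from 2.15 to 3.38 for CRYM (adjusted p 0.00112 to 0.0146) and 2.31 to 3.41 for PRLR (adjusted p 0.000317 to 0.0368), the lowest values being those with the heifer as replicate block. With each heifer left out it ranged from 2.87 to 3.58 and from 2.79 to 3.86. All of these fits reuse the low HPHE values of the earlier sampling time, which are not independent of the choice of the genes. Agreement among these fits therefore does not separate time from that choice. The block changed no call of a member, but lowered the change of DSP in HPLE to 0.11 and called 570 genes in LPLE and 899 in HPLE.

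The number of genes called also moved with the test and with the samples in the fit. The quasi-likelihood F test called 0 genes in HP-LP, LPHE-LPLE, HPHE-HPLE and HMY-LCM of month 7 and in HMY-LCM at 12 months, and 43 for time in LPLE. DESeq2 called 423 in LPHE-LPLE, 67 in HMY-LCM of month 7 and 11 at 12 months. The older dispersion functions, added after the values were seen, called 12 in HP-LP, 848 in HE-LE and 4 in HMY-LCM at 12 months. With all 48 samples in the fit, 809 genes were called in HE-LE, 74 in LPHE-LPLE, 67 in HPHE-HPLE, 0 in HP-LP and 0 in HMY-LCM of month 7, and 5 in HMY-LCM at 12 months. With only the diets compared 189 were called in HPHE-HPLE, and without pedigree 122 in LPHE-LPLE. In HPHE-LPHE and HPLE-LPLE of month 7 the older dispersion functions called 1 and 10 genes. The other settings named here and the absence of a filter called at most 4 genes in these contrasts. In HP-LP no filter called 7 and the filter of 10 counts 1. That filter called 2 in HMY-LCM at 12 months. Without scaling beyond library size the median of all genes moved by 0.171 in HPHE and 0.193 in LPHE with time. A filter of 10 counts in every sample left no value for PRLR in month 7 or for any member in the other fits, and DESeq2 gave no adjusted p for DSP in month 7. P-values of fits within a sampling time measure the spread between heifers. Those for time without the block treat both samples of a heifer as independent, and so do not measure how the change varied between heifers. Low counts limit the precision of the lowest levels.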
